A study of Homo sapiens with 21 samples.

Results

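PFDS and PFOS, perfluoroalkyl sulfonates that differ in the length of the fluorinated chain, were compared in differentiated SH-SY5Y cells. The comparison used 3 PFDS and 3 PFOS libraries, 6 of the 21 libraries in the series, and the 24879 genes of 62656 in the deposited count table that had enough counts to test. SH-SY5Y is an established human neuroblastoma line with sympathetic neuroblast features, recorded in the labels as wild type and as differentiated to a neuronal-like state over 11 days. Cells were then exposed for 24 h to 30 µM of a compound in a final 1% methanol, and total RNA was sequenced after ribosomal RNA depletion. The libraries used here are PFOS, PFDS, the control, whose methanol content is not given in the sources used here, and PFOA and PFDA as the other pair that differs in chain length; the fluorotelomers 8:2 FTS and 8:2 FTOH complete the 7 groups of 3. All groups share the cell line and its differentiation, and a single line in culture lacks the other cells of nervous tissue.

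PFOS (perfluorooctanesulfonic acid) and PFDS (perfluorodecanesulfonic acid) carry the same sulfonate head group on a straight, fully fluorinated carbon chain, which is longer in PFDS. Such molecules behave as surfactants, partition into membranes and bind proteins that carry fatty acids, and chain length is known to alter those properties. In neurons, calcium entry and growth factor signals act through ERK and CREB to switch on immediate early genes within minutes; FOS, a subunit of the AP-1 transcription factor, and EGR1, a zinc finger transcription factor, are the usual readouts of that pathway.

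The promoters of FOS and EGR1 are shown because FOS was the gene that passed the test between the sulfonates and EGR1 was past it against the control with both. Each run holds 300 bases on the plus strand, 250 before and 50 after the annotated start, from RefSeq (GRCh38.p14): FOS at chr14:75278578-75278877 and EGR1 at chr5:138465229-138465528. Capitals mark the cyclic AMP response element core TGACGT on either strand (ACGTCA on the other), TATAAA on either strand, and the CArG box bound by serum response factor.
FOS: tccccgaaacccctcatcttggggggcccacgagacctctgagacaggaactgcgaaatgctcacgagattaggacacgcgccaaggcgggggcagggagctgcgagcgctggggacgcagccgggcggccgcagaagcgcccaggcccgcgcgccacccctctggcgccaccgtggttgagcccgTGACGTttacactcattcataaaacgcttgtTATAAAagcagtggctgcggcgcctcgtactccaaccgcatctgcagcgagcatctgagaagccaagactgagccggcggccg
EGR1: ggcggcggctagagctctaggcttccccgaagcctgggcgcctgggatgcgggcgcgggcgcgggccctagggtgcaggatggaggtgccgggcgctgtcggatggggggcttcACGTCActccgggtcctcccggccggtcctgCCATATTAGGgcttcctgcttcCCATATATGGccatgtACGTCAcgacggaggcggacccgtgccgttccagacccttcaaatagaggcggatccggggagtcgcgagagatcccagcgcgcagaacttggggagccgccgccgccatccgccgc
FOS holds TGACGT beginning 64 bases before the start and TATAAA 33 bases before it. In EGR1 the core stands on the other strand at 136 and 67 bases before the start, and CArG boxes begin at 105 and 83 bases before it. Of 35116 RefSeq promoter windows of the same length, 7.98% hold the core, 1.29% a CArG box and 11.5% TATAAA. Bases more than 250 before the start were not searched, so the lack of a CArG box in the FOS run does not show that the gene has none further upstream. These are matches of letters, and no binding was measured.

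The 6 libraries held between 11839106 and 30429746 counts (median 14098587), and the other 15 between 7680024 and 27940700. The label of a neuronal-like neuroblastoma line was checked against marker genes: all 15 adrenergic and neuronal markers had counts in all 6 libraries, DBH at 1130 to 1330 CPM (counts scaled to the library's total) and TH at 0.342 to 1.25 CPM. Of 15 mesenchymal and fibroblast markers 13 were testable, from PRRX1 at 0 in all 6 to TWIST1 at 241 to 305 CPM and NOTCH2 at 109 to 130 CPM. Of 12 Schwann cell and glial markers 10 were, from FOXD3 and CDH19 at 0 to PMP22 at 15 to 18.4 CPM and NGFR at 37.2 to 118 CPM. PFDS replicate 1 stood apart: 5.24% of its counts came from the mitochondrial genome, against 3.61% to 4.12% in the other 5 libraries and up to 6.33% among the other 15. The summed level of the glial list, of which NGFR was the largest part, was also lower in it, at 69.5 CPM against 121 to 158 CPM. PFDS replicate 1 also had the fewest counts of the 6 and the fewest genes with a count (32346). Log2 CPM values correlated at 0.9799 to 0.9898 between libraries of the same compound and at 0.9787 to 0.9897 between compounds, as a description over genes. Pairs that included PFDS replicate 1 lay at 0.9787 to 0.9838, and pairs without it at 0.9852 to 0.9898.

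One gene, FOS, differed between PFDS and PFOS at an adjusted p under 0.05, and it was higher in PFDS by 3.29-fold (95% interval 2.16 to 5.03). That is 0.00402% of the genes tested with edgeR's quasi-likelihood test, fitted over all 21 libraries and adjusted over all genes by Benjamini and Hochberg, with 0 genes lower. At an unadjusted p under 0.05 there were 1087 genes (4.37%), 500 higher with PFDS (2.01%) and 587 lower (2.36%). The 3 PFDS libraries lay wholly above the 3 PFOS libraries for 981 genes (3.94%) and wholly below them for 1197 (4.81%). This was the 1 pair of sulfonates compared, at the same dose and time.

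**Figure D1:**
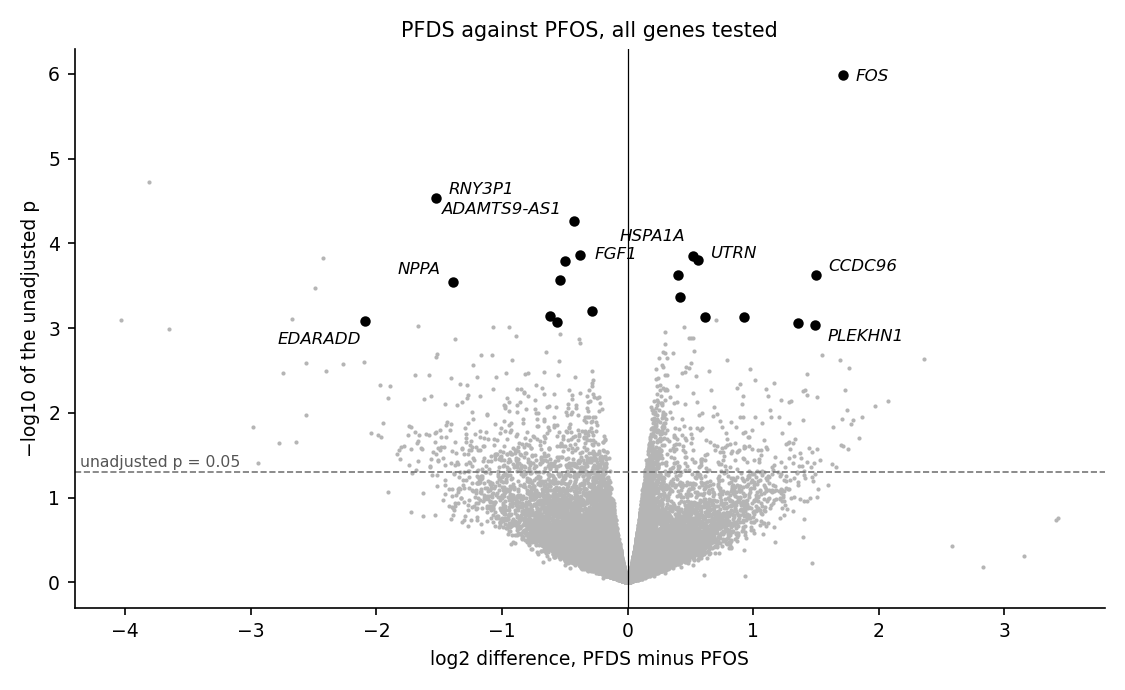
Each point is 1 of the 24879 genes tested, with the log2 difference (PFDS minus PFOS) on the x axis and −log10 of the unadjusted p on the y axis. Black points are the genes listed below as lowest in p in each direction, some of them named, and the dashed line marks the unadjusted threshold of 0.05. FOS stands above every other gene, at a log2 difference of 1.72.

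For most well-expressed genes the intervals of the difference between these libraries were narrow. Each interval takes the spread of a gene from all 7 groups together. It can therefore be too narrow for a gene that varied more among the PFDS or PFOS libraries than in the other groups. Among the 11273 genes whose mean reached 10 CPM in either group, the 95% interval lay within 1.5-fold in either direction for 97.09% and within 2-fold for 99.57%, with a median margin of 0.199 on the log2 scale to either side. Only 32 of these genes had an estimate beyond 1.5-fold. The same limits were far wider for the 9111 genes between 1 and 10 CPM, where 17.14% of intervals lay within 1.5-fold and 64.71% within 2-fold. For the 4495 genes under 1 CPM the median margin was 1.20, so differences of 2-fold were mostly not detectable there at this depth. A p that misses the threshold does not show that the compounds act alike, and the intervals give the sizes that the data still allow.

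FOS (ENSG00000170345, chr14:75278826-75282230, plus strand, protein coding) was near the low end of the range that could be tested. The counts were 31, 16 and 28 in PFOS replicates 1 to 3 and 50, 77 and 88 in PFDS replicates 1 to 3. Scaled by library size and composition (TMM-scaled CPM, the scale of all gene levels below), these were 1.00, 1.20 and 1.92 with PFOS and 4.22, 5.69 and 3.42 with PFDS. Every PFDS library was above every PFOS library, with means of 4.45 ± 1.15 and 1.38 ± 0.486 CPM (SD, n = 3 each). In RNA from a whole dish, fewer cells with the transcript and less of it per cell cannot be told apart. The log2 difference was 1.72 (SE 0.30, 95% interval 1.11 to 2.33), with an edgeR adjusted p of 0.0253.

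In the control FOS was higher than with either sulfonate. The methanol content of the control is not given, so a compound and its vehicle cannot be told apart against it. The control libraries held 8.57, 7.08 and 6.85 CPM, above all 3 PFDS and all 3 PFOS libraries. The log2 difference of FOS from control was -2.49 with PFOS (95% interval -3.08 to -1.90, edgeR adjusted p = 9.09e-07). With PFDS the difference from control was -0.77 (-1.30 to -0.25, edgeR adjusted p = 0.579), which did not pass. Both comparisons use the same control libraries, so they are set side by side only. Among the other compounds, means were 2.20 ± 0.467 CPM with PFOA, 2.71 ± 1.05 with PFDA, 1.56 ± 0.315 with 8:2 FTS and 2.67 ± 0.562 with 8:2 FTOH (SD, n = 3 each). PFDS thus had the highest mean of the 6 compounds and PFOS the lowest, and the 8:2 FTS libraries (1.25 to 1.88 CPM) lay within the range of PFOS.

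The call of FOS rested on few libraries, while its direction did not change. The log2 difference was between 1.48 and 2.03 over 14 alternative settings, and the adjusted p passed in 8 of them. With DESeq2 it was 0.000644, and with the 6 libraries alone fitted with edgeR it was 0.103. Leaving out 1 library ended the call for PFOS replicate 1 (adjusted p = 0.751), PFOS replicate 2 (0.354), PFDS replicate 2 (0.176) and PFDS replicate 1 (0.0578), all by edgeR, as did scaling by library size alone (0.0623). Without PFDS replicate 2 the genes called were HSPA1A and UTRN, and without PFDS replicate 3 they were FOS, INHBA and ADAMTS9.

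**Figure D2:**
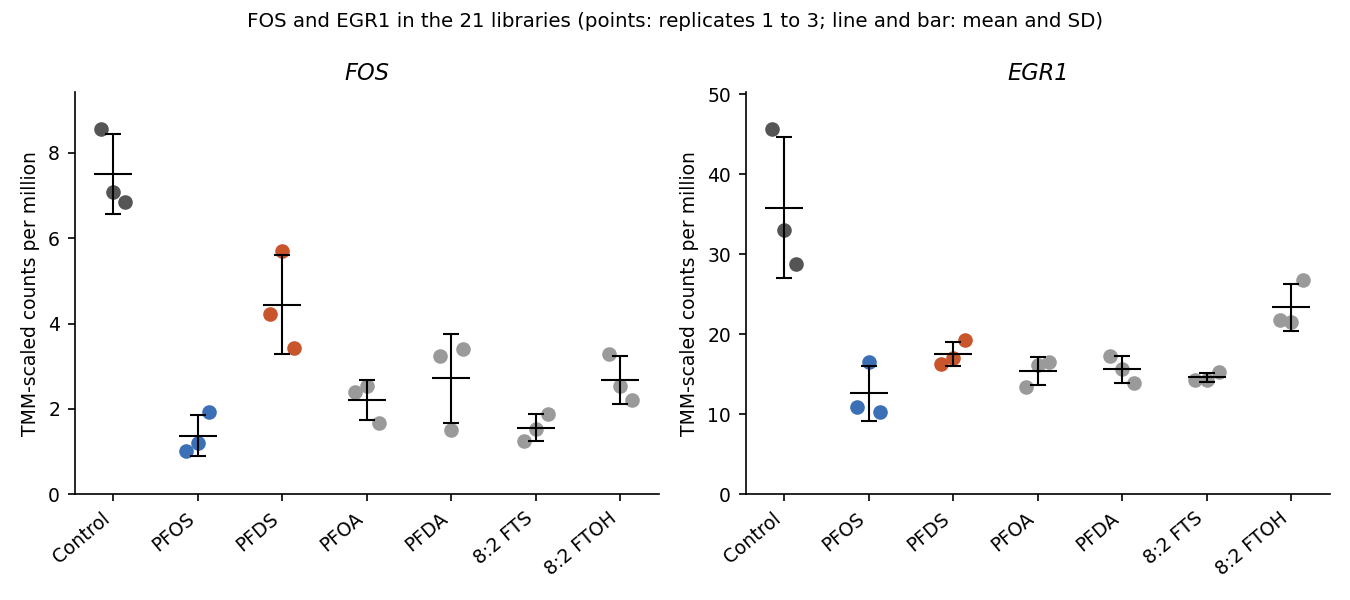
TMM-scaled CPM of FOS (left) and EGR1 (right) in each of the 21 libraries, by group, with the mean and SD of 3 libraries. For FOS the PFDS points (3.42 to 5.69) lie between the control and all PFOS points (1.00 to 1.92), and for EGR1 the PFDS and PFOS points overlap.

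EGR1 (ENSG00000120738, chr5:138465479-138469303) was lower than control with both sulfonates and was not called between them. It held 10.9, 16.6 and 10.2 CPM with PFOS, 16.3, 17.1 and 19.3 with PFDS, and 45.7, 33 and 28.7 in the controls. PFOS replicate 2 was above PFDS replicate 1, so the groups overlapped. The log2 difference of PFDS from PFOS was 0.50 (95% interval 0.19 to 0.82, edgeR unadjusted p = 0.00259, adjusted p = 0.999). EGR1 was below control by 1.53 with PFOS and by 1.02 with PFDS on the log2 scale (edgeR adjusted p = 0.000613 for PFDS). The lower level was not limited to the sulfonates, whose means were 12.6 CPM with PFOS and 17.5 with PFDS. Means were 15.4 CPM with PFOA, 15.6 with PFDA, 14.6 with 8:2 FTS and 23.3 with 8:2 FTOH, against 35.8 in the control.

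Of 29 immediate early genes on the list, 23 were testable, 15 with a positive and 8 with a negative difference, and their median was 0.057 beside -0.004 over all genes tested. With 1 library left out that median ranged from -0.058 to 0.095. FOS and EGR1 were the members with an unadjusted p under 0.05, which 4.37% of all genes reached. FOSB, another AP-1 subunit, was at 0.775, 0.825 and 0.275 CPM with PFOS and 1.35, 1.33 and 0.739 with PFDS, a log2 difference of 0.79 with an interval from -0.30 to 1.87. At that level the data allow anything from a small decrease to more than a 2-fold increase. The ERK feedback genes, which encode the phosphatases and inhibitors that shut the pathway off, centred on -0.010 over 23 testable members of 24. SPRY2, an inhibitor of receptor tyrosine kinase signalling, was at 51.8, 56.4 and 53.2 CPM with PFOS and 37.9, 42 and 52.5 with PFDS (log2 difference -0.27, -0.46 to -0.08). DUSP8, a MAP kinase phosphatase, differed by 0.21 (0.03 to 0.38) with all 3 PFDS libraries above all 3 PFOS libraries. SPRY2 and DUSP8 were the only members of the feedback list with an unadjusted p under 0.05 (4.37% over all genes).

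The genes described next are the 10 of lowest unadjusted p in each direction with a symbol and at least 1 CPM, whether or not they passed. Secreted growth factors were among those lower with PFDS, none of which passed the adjusted threshold. INHBA, the activin A subunit and a gene that neuronal activity is known to induce, was at 53.5, 49.0 and 52.9 CPM with PFOS and 29, 32 and 47.3 with PFDS. The groups did not overlap, although PFDS replicate 3 came close to PFOS, and the log2 difference was -0.50 (-0.74 to -0.26, edgeR adjusted p = 0.450). FGF1, an acidic fibroblast growth factor, was at 54.2, 52.2 and 53.5 CPM with PFOS and 36.9, 39.5 and 46 with PFDS. Its log2 difference was -0.38 (-0.56 to -0.20, edgeR adjusted p = 0.450), and an antisense gene, SPRY4-AS1, overlaps its body. Without PFDS replicate 3 INHBA passed, at -0.76 and an edgeR adjusted p of 0.000199. Over the 28 testable of 33 activin, TGF-beta, BMP and FGF genes the median was -0.007. At an unadjusted p under 0.05, 2 members were higher and 2 lower (2.01% and 2.36% over all genes). ID2, an inhibitor of helix-loop-helix factors and a target of BMP signals, was on the other side, at 2.71, 3.53 and 3.71 CPM with PFOS and 5.24, 4.51 and 5.37 with PFDS (log2 difference 0.63, 0.06 to 1.20).

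The other genes of lowest p that were lower with PFDS included secreted and membrane proteases. ADAMTS9, a secreted metalloprotease, was at 607, 641 and 627 CPM with PFOS and 442.5, 510 and 591 with PFDS (log2 difference -0.28). Its antisense partner ADAMTS9-AS1 was at 42.2, 39.2 and 41.6 CPM against 30.2, 32.1 and 29.5 (log2 difference -0.43). The exons of the pair overlap on opposite strands and the counting set no strand option, per the file headers, so their reads cannot be told apart. CORIN, a membrane protease that activates natriuretic peptides, was at 20.2, 20.9 and 18 CPM with PFOS and 11.0, 15.8 and 13.7 with PFDS (log2 difference -0.54, -0.82 to -0.27). NPPA, which encodes atrial natriuretic peptide, differed by -1.39 (-2.10 to -0.68) at 2.32 CPM with PFOS and 0.836 CPM with PFDS, and it shares exon bases with CLCN6 on the other strand. FAM181B differed by -0.56, ZMPSTE24-DT by -0.62, EDARADD, an adaptor of the ectodysplasin receptor, by -2.09 and the Y RNA pseudogene RNY3P1 by -1.52. EDARADD rested on 30, 19 and 18 counts with PFOS and 8, 2 and 3 with PFDS, and it was at -3.15 without PFDS replicate 1 and -1.56 without PFDS replicate 3. In all of these the 3 PFDS libraries were below the 3 PFOS libraries, as choosing by lowest p favours.

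Genes of lowest p that were higher with PFDS included a heat shock protein, a granule protein and a lysosomal enzyme, and again none but FOS passed. HSPA1A, the inducible Hsp70 chaperone, was at 21.3, 21.2 and 21.2 CPM with PFOS and 36.7, 23.9 and 31.3 with PFDS (log2 difference 0.53, 0.27 to 0.78). The controls held 25.8, 30.2 and 24.6 CPM, within the range of PFDS. HSPA1A was at -0.34 from control with PFOS and 0.19 with PFDS, neither past the adjusted threshold. It has a near-identical copy, HSPA1B, between which the authors' counting could split or drop reads. CHGA, chromogranin A of catecholamine granules, was at 244, 273 and 263 CPM with PFOS and 412, 305 and 312 with PFDS (log2 difference 0.40, 0.20 to 0.60). TPP1, a lysosomal peptidase, was at 25, 22.2 and 23.9 CPM against 38.2, 30.4 and 27.5 (log2 difference 0.42, 0.20 to 0.64). In each of these PFDS replicate 1, the library with the highest mitochondrial share of its counts, was the highest of the 6. Without it the log2 differences were 0.39 for HSPA1A, 0.25 for CHGA and 0.28 for TPP1.

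UTRN, the dystrophin relative utrophin, was at 31.5, 35.5 and 37.4 CPM with PFOS and 67.6, 37.9 and 48.3 with PFDS, with PFDS replicate 2 barely above PFOS (log2 difference 0.56, 0.29 to 0.83, and 0.33 without PFDS replicate 1). SLITRK6, a membrane protein of neurite growth and synapse formation, was at 85.0, 65.9 and 68.5 CPM with PFOS and 129, 96.1 and 113 with PFDS (log2 difference 0.62, 0.30 to 0.94). Its adjusted p was 0.808 with edgeR and 0.0386 with DESeq2, and with edgeR it was 1.76e-06 with no filter on low counts and 0.0496 without the 2 libraries absent from the authors' normalized table. CHST7, a sulfotransferase of proteoglycan chains, differed by 0.92 (0.41 to 1.44) at 2.04 CPM with PFOS and 3.85 CPM with PFDS. CCDC96 (1.5), PLEKHN1 (1.49) and LBX2-AS1 (1.35) had larger log2 differences at levels under 1 CPM with PFOS, and exons of CCDC96 and LBX2-AS1 overlap those of neighbours on the other strand.

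**Figure D3:**
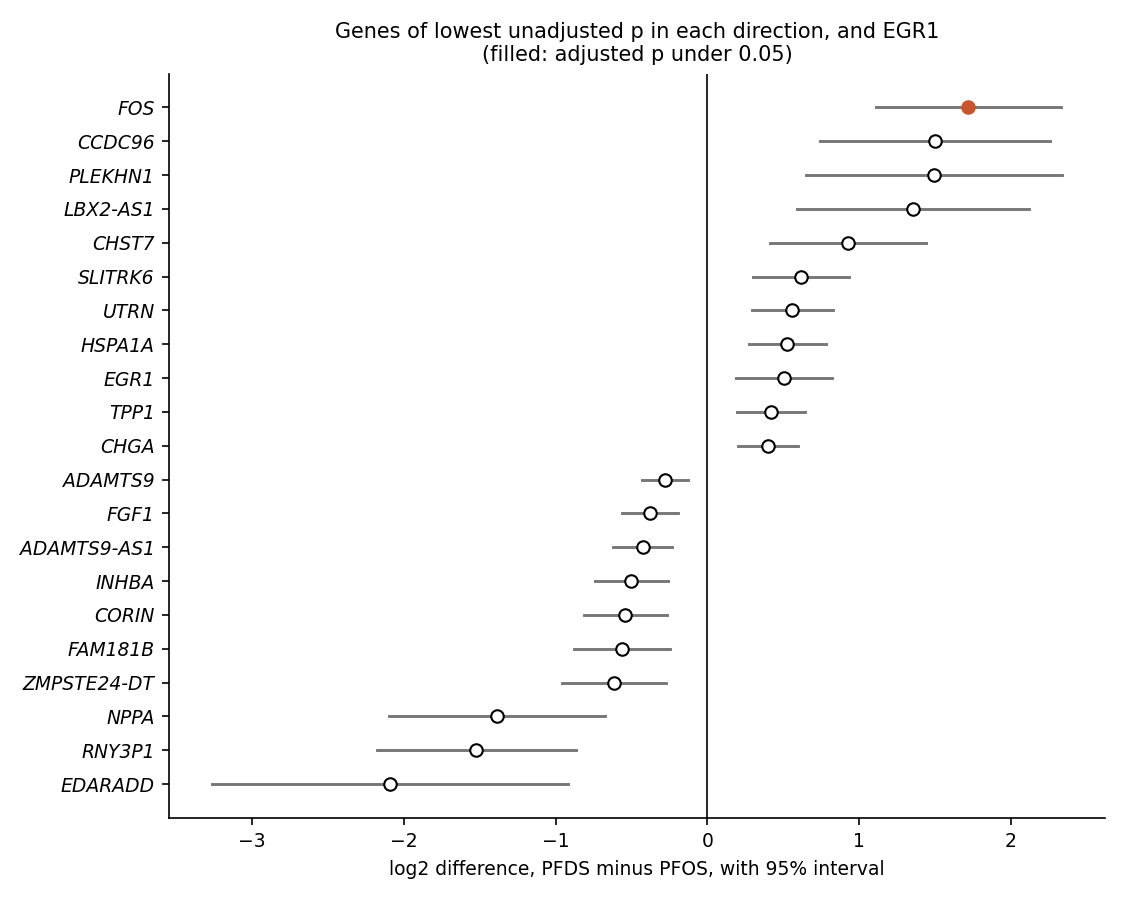
Log2 difference of PFDS from PFOS (x axis, with the 95% interval) for the 10 genes of lowest unadjusted p in each direction and for EGR1, ordered by size. FOS, the filled point at 1.72, passed the adjusted threshold, and the open points did not; intervals are widest for the genes of low level, such as EDARADD at -2.09.

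The gene lists showed small shifts around a median of -0.004 over all genes tested, where 48.9% of differences were above 0. Among 31 cytosolic heat shock and co-chaperone genes, 29 were testable, 22 were positive, and 6 had an unadjusted p under 0.05, all higher with PFDS (2.01% of all genes were), with a median of 0.061. That median was 0.023 without PFDS replicate 3 and 0.102 without PFDS replicate 2. Against the shared controls the list's median was below 0 with both compounds, at -0.127 with PFOS and -0.093 with PFDS. CHORDC1, an Hsp90 partner, was at 85.8, 83.0 and 86.0 CPM with PFOS and 112, 91.8 and 91.4 with PFDS (log2 difference 0.21, 0.05 to 0.37). FKBP5, an Hsp90 partner of steroid receptors, differed by 0.26 (0.04 to 0.48), and its groups overlapped. The ER chaperones and unfolded protein response genes, all 35 testable, had a median of 0.084 with 28 positive, and 0 reached an unadjusted p under 0.05 with edgeR. Against the shared controls their median was -0.087 with PFOS and -0.017 with PFDS. SEL1L, of the ER degradation complex, differed by 0.15 (-0.01 to 0.30) and SDF2L1, an ER chaperone component, by 0.38 (-0.03 to 0.80).

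Genes of the integrated stress response, which restrains translation and induces amino acid supply genes through ATF4, leaned the other way. Of 27 testable members of 29, 23 were negative and 4 positive, with a median of -0.072, and the PFDS libraries were wholly below PFOS for 5 of them (4.81% over all genes). DDIT3, the stress factor CHOP, was at 14.1, 13.6 and 13.6 CPM with PFOS and 6.67, 11.5 and 11.8 with PFDS (log2 difference -0.44, -0.87 to -0.02). Its exons overlap those of MARS1 and MBD6 on the other strand, so some reads cannot be told apart. TRIB3, a pseudokinase induced by ATF4, was at 41.5, 41.6 and 47.4 CPM against 26.9, 39.3 and 40.6 (-0.28, -0.52 to -0.03), and CHAC1, which degrades glutathione, differed by -0.30 (-0.60 to 0.00). Against the shared controls the list's median was 0.244 with PFOS and 0.148 with PFDS. DDIT3 and TRIB3 were at their lowest in PFDS replicate 1 and were at -0.24 and -0.12 without it, while the list's median was -0.074 without that library. It was -0.022 without PFDS replicate 2.

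SLC7A11, the cystine transporter that supplies glutathione synthesis, was 0.97 above control with PFOS on the log2 scale (edgeR adjusted p = 0.00328). With PFDS it was 0.71 above control (edgeR adjusted p = 0.120). It held 10.9, 13 and 13.3 CPM with PFOS and 10.6, 9.76 and 10.4 with PFDS, against 4.31, 6.66 and 7.90 in the controls. Between the sulfonates it differed by -0.26 (-0.59 to 0.07), which did not pass. Among 22 amino acid transporters the median was 0.016, and among 20 cytosolic aminoacyl-tRNA synthetases -0.017. FARSB, a subunit of the phenylalanine enzyme, was at 47.4, 57.8 and 51.3 CPM with PFOS and 43.1, 41.3 and 44.4 with PFDS (log2 difference -0.27), while its partner subunit FARSA differed by 0.11. NRF2 targets had a median of -0.031 with 2 of 37 lower at an unadjusted p under 0.05 (2.36% over all genes). These were MGST1 (-1.29, at 1.19 and 0.442 CPM) and AKR1C1 (-0.40). The 23 testable ferroptosis genes had a median of -0.004 and 0 with an unadjusted p under 0.05.

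**Figure D4:**
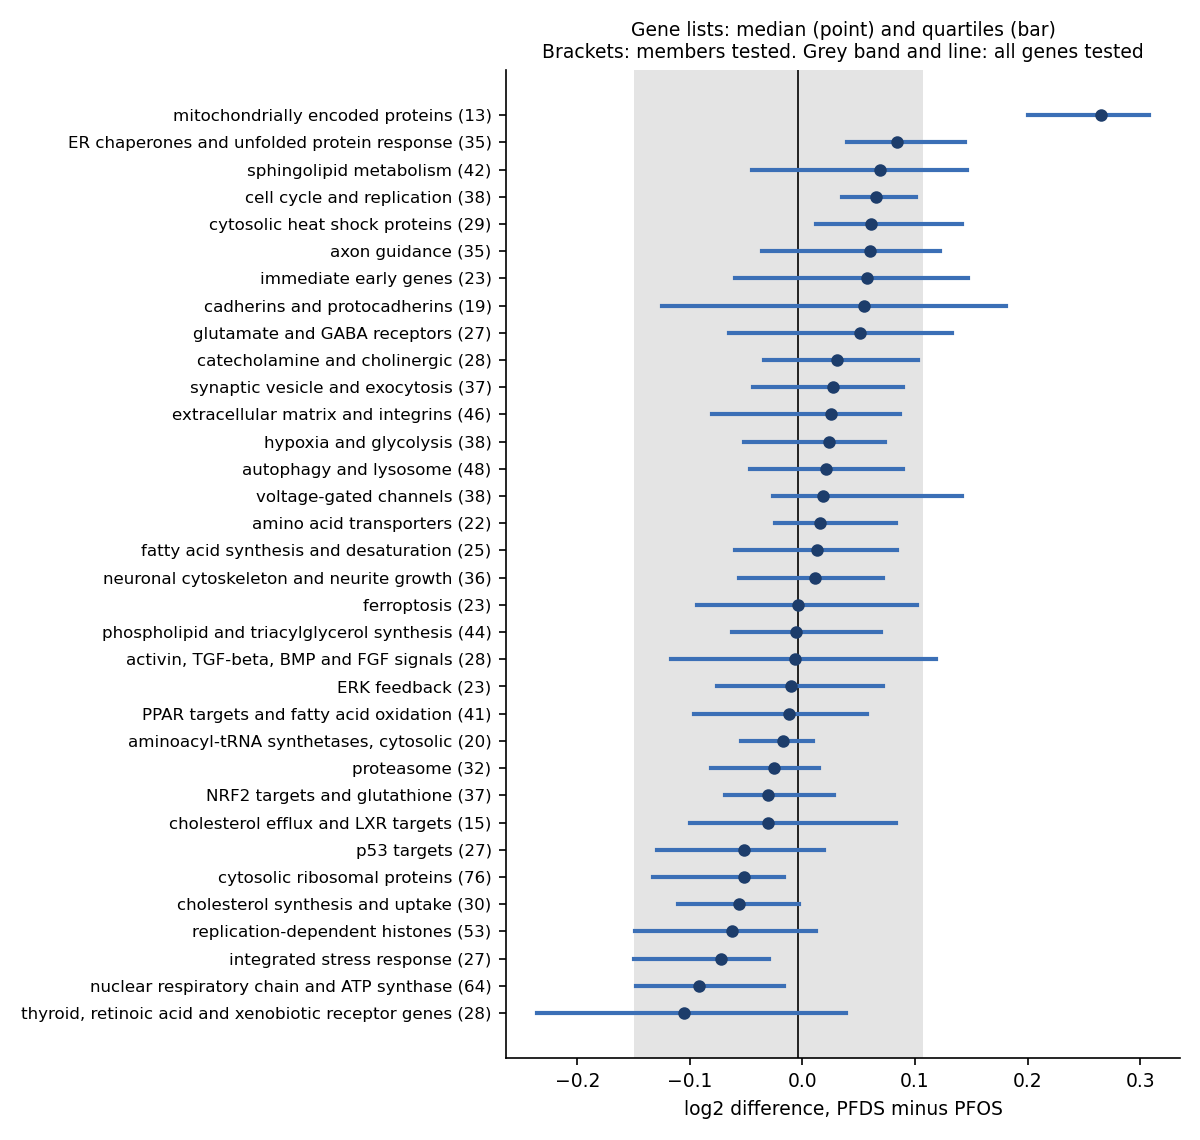
Median (point) and quartiles (bar) of the log2 difference, PFDS minus PFOS, over the testable members of each gene list, with the number of members in brackets. The grey band and the line give the quartiles and median of all genes tested; the mitochondrially encoded genes, at 0.265, lie outside the band.

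The lipid gene lists described next had medians between -0.056 and 0.069. Of 30 testable cholesterol synthesis and uptake genes 23 were negative, with a median of -0.056, and 0 had an unadjusted p under 0.05. HMGCS1, an early enzyme of the pathway, was at 597, 618 and 613 CPM with PFOS and 358, 547 and 671 with PFDS, and LSS, lanosterol synthase, was at 211, 209 and 205 against 130, 207 and 204. In both, PFDS replicate 1 was the lowest of the 6, and for HMGCS1 PFDS replicate 2 was also below every PFOS library. Without PFDS replicate 1 the list's median was 0.039, and without PFDS replicate 3 it was -0.187. Fatty acid synthesis genes had a median of 0.013 over 25, with SCD5, a desaturase expressed in brain, at 43.2, 41.7 and 46 CPM with PFOS and 58.9, 48.4 and 55.3 with PFDS (log2 difference 0.31, 0.11 to 0.52). The 41 PPAR target and fatty acid oxidation genes that could be tested had a median of -0.012 and 0 with an unadjusted p under 0.05. The bounds of all 41 intervals lay between -2.03 and 1.89. Sphingolipid genes had 4 of 42 higher and 0 lower at an unadjusted p under 0.05 (2.01% and 2.36% over all genes), a median of 0.069 (0.024 without PFDS replicate 3), and B4GALT5 (0.21), UGT8 (0.30) and CERK (0.17), which make glycosphingolipids, galactosylceramide and ceramide phosphate, as the members of lowest p. Phospholipid and triacylglycerol genes had a median of -0.006 over 44.

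The mitochondrially encoded protein genes had the largest list median, 0.265, with 12 of 13 positive. MT-CO1, a cytochrome oxidase subunit, differed by 0.20 (0.04 to 0.36) and MT-CO2 by 0.22 (0.01 to 0.43). Their summed level was 37250, 36470 and 39280 CPM with PFOS and 51830, 37640 and 43120 with PFDS, highest in PFDS replicate 1, and the median without that library was 0.080. It was 0.225 for PFDA against PFOA. The nuclear genes of the same respiratory complexes had a median of -0.092, with 52 of 64 negative, and NDUFA1, a complex I subunit, was at 28.9, 27.3 and 29.5 CPM with PFOS and 13.9, 20.1 and 26.8 with PFDS (-0.47, -0.83 to -0.10, and -0.27 without PFDS replicate 1). Without PFDS replicate 1 the nuclear median was -0.014, and without PFDS replicate 3 it was -0.161. Cytosolic ribosomal protein genes, 62 of 76 negative with a median of -0.052, had a median of 0.038 without that library and -0.156 without PFDS replicate 3.

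The neuronal gene lists described next had medians between 0.011 and 0.051. The 36 genes of the neuronal cytoskeleton and neurite growth had a median of 0.011, and INA, the neuronal filament internexin, was at 191, 211 and 202 CPM with PFOS and 244, 216 and 239 with PFDS (0.21, 0.06 to 0.36). The 37 testable synaptic vesicle genes had a median of 0.027 and 95% intervals that all lay between -0.65 and 0.45. Catecholamine and cholinergic genes had a median of 0.031 over 28. CHGA was higher and MAOA, monoamine oxidase A, lower at an unadjusted p under 0.05 (2.01% and 2.36% over all genes). MAOA was at 109, 105 and 111 CPM with PFOS and 72.2, 89.2 and 110 with PFDS (-0.25, -0.45 to -0.06), and its difference was -0.12 without PFDS replicate 1. Of 38 voltage-gated channel genes 4 were higher and 0 lower at that p (2.01% and 2.36% over all genes), the lowest being the potassium channels KCNQ5 (0.35), KCNMA1 (0.27) and KCNA3 (0.24). Without PFDS replicate 1 KCNQ5 was at 0.11 and KCNMA1 at 0.11, and without PFOS replicate 1 KCNA3 was at 0.14. Glutamate receptors went in both directions, with the NMDA subunit GRIN1 at 0.27 and the metabotropic GRM7 at -0.28.

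In the matrix and adhesion lists, COL6A3, a collagen VI chain, was at 2.75, 2.70 and 1.92 CPM with PFOS and 1.01, 0.739 and 1.59 with PFDS (log2 difference -1.08, -1.74 to -0.41). TIMP1, a metalloprotease inhibitor, was at 3.29, 2.70 and 2.75 CPM against 4.90, 4.88 and 4.47 (0.68, 0.17 to 1.19). Both were at levels where an interval spans more than 2-fold. EPAS1, the hypoxia factor HIF-2 alpha, was at 80.3, 96.5 and 85.6 CPM with PFOS and 149, 104 and 111 with PFDS (0.47, 0.18 to 0.76, and 0.30 without PFDS replicate 1), while the hypoxia and glycolysis list as a whole had a median of 0.024. Cell cycle genes had 34 of 38 positive with a median of 0.065 (0.011 without PFDS replicate 3 and 0.021 without PFOS replicate 1), MKI67 at 0.22 and PLK1 at 0.19, beside a median of -0.128 against control for PFOS and -0.062 for PFDS. Proteasome genes had a median of -0.025, p53 targets -0.052, replication-dependent histones -0.063, and thyroid, retinoic acid and xenobiotic receptor genes -0.105, where DHRS3, a retinal reductase, differed by -0.32 and was lowest in PFDS replicate 1. Without that library the histone median was 0.100 and the receptor median -0.009, and without PFDS replicate 3 the histone median was -0.221.

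Each sulfonate was then read against the control, which shares its 3 libraries between both comparisons. At an edgeR adjusted p under 0.05, 6 genes differed from control with PFOS (0.0241% of those tested, 2 or 0.00804% higher and 4 or 0.0161% lower). With PFDS 6 differed (0.0241%, 1 or 0.00402% higher and 5 or 0.0201% lower), and EGR1 was in both sets. The methanol content of the control is not given, so a compound and its vehicle cannot be told apart in these comparisons. Of those called with PFDS, ARSJ, an arylsulfatase, was at -0.32 with PFOS and -0.86 with PFDS, CDH20, a cadherin, at -0.31 and -0.96, INHBA at -0.17 and -0.67, and FGF1 at -0.11 and -0.49. NTNG2, a netrin-like adhesion protein, was at 0.30 and 0.53. Between the sulfonates these differed by -0.54 (ARSJ), -0.65 (CDH20) and 0.23 (NTNG2), none past the adjusted threshold. Of those called with PFOS beside FOS, EGR1 and SLC7A11, the U1 variant RNVU1-25 was at -1.16 with PFOS and -0.65 with PFDS, ENSG00000287979 at -1.01 and -0.30, and DNM3OS, a microRNA host transcript, at 0.55 and 0.23. A gene past the threshold with one sulfonate and not with the other is not shown to differ between them, and of these 11 genes FOS was the one for which that difference passed. Without control replicate 3, which the authors' normalized table also lacks, the counts were 24 for PFOS and 23 for PFDS. Without PFDS replicate 3 the PFDS count was 100. Without control replicate 2 the counts were 3 for PFOS and 1 for PFDS, and without control replicate 1 they were 3 and 3. Without PFOS replicate 2 the PFOS count was 2.

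**Figure D5:**
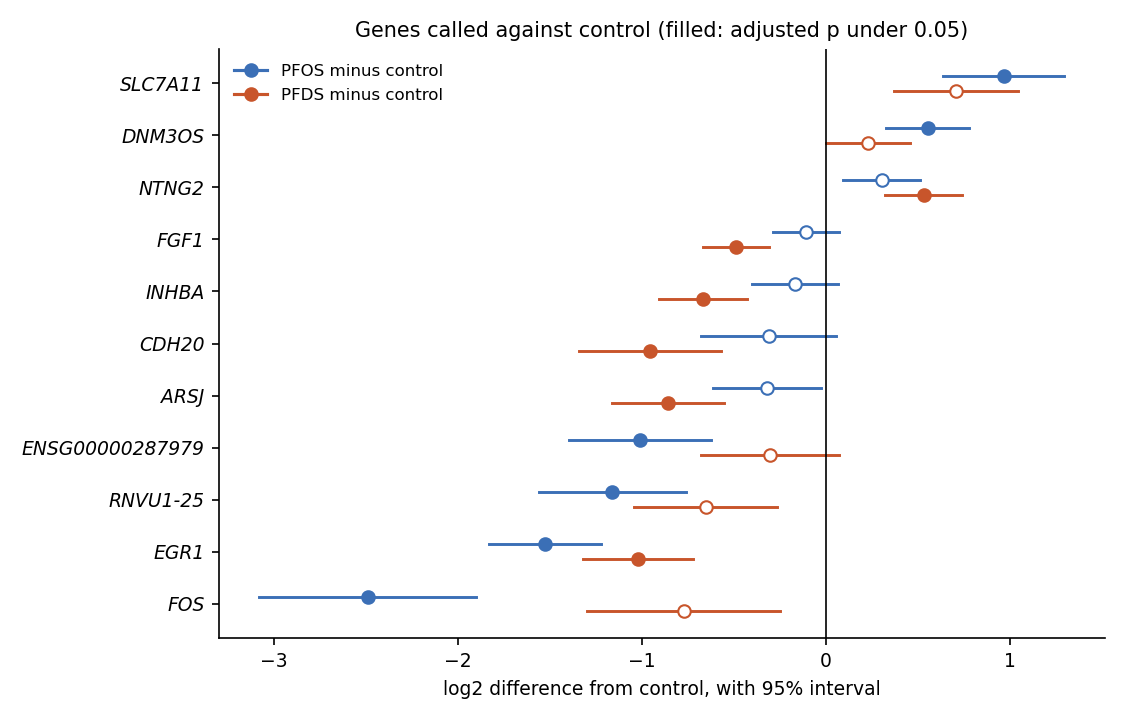
Log2 difference from control (x axis, with the 95% interval) of the 11 genes called with PFOS (blue) or PFDS (orange), filled where the adjusted p was under 0.05. The intervals of the compounds do not overlap for FOS (-2.49 with PFOS and -0.77 with PFDS), INHBA and FGF1. Both sets of intervals use the same controls, so this is not a test between the compounds. In that test INHBA and FGF1 did not pass (edgeR adjusted p = 0.450 for each).

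The pair of carboxylates that differ in chain length, PFDA and PFOA, shares no library with the sulfonates and had 0 genes called by edgeR (0%) and 0 by DESeq2, with 729 (2.93%) at an unadjusted p under 0.05. FOS was at 3.25, 1.5 and 3.39 CPM with PFDA and 2.40, 2.54 and 1.67 with PFOA, a log2 difference of 0.38 (-0.22 to 0.97). The test of whether chain length mattered differently in sulfonates and carboxylates called 0 genes with edgeR (0%) and 0 with DESeq2, with 869 (3.49%) at an unadjusted p under 0.05. For FOS that difference of differences was 1.34 (95% interval 0.49 to 2.20, edgeR unadjusted p = 0.00276, adjusted p = 0.998). It was -0.50 for INHBA, -0.38 for FGF1, -0.71 for CORIN, 0.72 for SLITRK6 and 0.52 for UTRN, and none passed the adjusted threshold. PFDA and PFOA themselves differed by between -0.10 (SLITRK6) and 0.17 (CORIN) on the log2 scale for these 5 genes.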

How the data were processed

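RNA-seq counts of 21 libraries of differentiated SH-SY5Y cells were used, 3 in each of 7 groups. The authors deposited raw read counts per gene, made with featureCounts 2.0.1 per the file headers. The submitters' processing notes name hg38, FastQC, MultiQC, HISAT2, SAMtools, featureCounts and DESeq2. Per the file headers no strand, pair or multi-mapping option was set, so antisense and near-identical genes can share or lose reads. Exons of ID2, INA, PLK1, KCNQ5, KCNMA1 and GRM7, among other named genes, overlap those of genes on the other strand. The labels' protocols name a stranded ribosomal depletion kit. The deposited normalized table was not used here. It lacks control replicate 3 and 8:2 FTOH replicate 3, which had the highest mitochondrial shares of the series (6.33% and 6.11% of counts). Whether replicates were separate cultures is not given in the sources used here, so p-values measure the spread between these libraries.

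Counts were tested with edgeR 4.0.16 in R 4.3.3: filterByExpr by group, TMM scaling, 7 group means over 21 libraries, robust quasi-likelihood F tests and Benjamini-Hochberg adjustment over 24879 genes at 0.05, with 95% intervals from the moderated standard errors. DESeq2 1.42.0 was an alternative. Gene names came from the table of IDs and symbols, which matched 99.97% of IDs. The analysis was tested on simulated data.

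Named genes were those past the threshold, the 10 of lowest unadjusted p in each direction with a symbol and at least 1 CPM, up to 3 of lowest p in each of 37 lists (3 of them markers), and those past the threshold against control. The compounds, lists and rules were chosen with earlier results of these data known, and lists were described by counts and medians without a test.

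Alternatives were other scaling, filters, DESeq2, the compared groups alone, a replicate block, and each library left out.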

Additional observations from a re-analysis of the deposited data

How the results depend on the processing

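Over the 14 alternatives, the number of genes called between PFDS and PFOS, 1 with the settings used, was 2 with DESeq2, 0 with scaling by library size alone, 17 with no filter on low counts, 6 with the compared groups alone and 2 without the 2 libraries absent from the authors' normalized table. It ranged from 0 to 3 when 1 library was left out. The 6 called with the compared groups alone were all lower with PFDS and were small structural or mitochondrial RNAs (RNU1-2, RNU1-4, SNORA73B, a Y RNA, ENSG00000207142 and MT-TP), and FOS was not among them. For PFOS against control, 6 with the settings used, the count was 19 with DESeq2, 52 with no filter, 48 with the compared groups alone and 27 without those 2 libraries, and 2 to 24 with 1 library left out. For PFDS against control, also 6, it was 34 with DESeq2, 13 with library size alone, 86 with no filter, 2 with the compared groups alone and 26 without those 2 libraries, and 1 to 100 with 1 library left out. The difference between the chain length contrasts called 1 gene with no filter and 0 in its other alternatives. PFDA against PFOA called 0 in all of its alternatives. The causes were not tested.

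No clear pairing by replicate number was seen: the deviations of same-numbered PFDS and PFOS libraries correlated at 0.072, -0.046 and 0.009, and not every library correlated best with its own number. Deviations were taken from means of 3 libraries, so this check cannot decide whether the numbers mark a shared culture or batch. With the number as a replicate block, 1 gene was called between PFDS and PFOS (FOS, log2 1.73, edgeR adjusted p = 0.0439), 5 for PFOS against control, 6 for PFDS against control, 0 for PFDA against PFOA and 0 for the difference between the contrasts.

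Of 127 named genes, 4 changed direction in an alternative, each when 1 PFDS library was left out: over the libraries left out, HMGCS1 ranged from -0.429 to 0.000, TWIST1 from -0.154 to 0.008, NR1H2 from -0.260 to 0.038 and MBP from -0.193 to 0.683. UTRN (0.74, edgeR adjusted p = 0.00391) and HSPA1A (0.68, 0.0428) passed without PFDS replicate 2, and ADAMTS9 (-0.39, 0.0361) and INHBA (-0.76, 0.000199) without PFDS replicate 3. The 17 called with no filter held SLITRK6, UTRN, EPAS1, INHBA, CHGA, HSPA1A, RNY3P1, ADAMTS9-AS1 and FOS among the named genes. The list medians moved most with 1 PFDS library left out: 0.080 to 0.356 for mitochondrially encoded genes, -0.221 to 0.100 for histones and -0.187 to 0.039 for cholesterol genes. With 3 libraries a group, differences under 1.5-fold at low counts were beyond what this depth resolves.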

Other observations

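Small RNAs made up a part of the libraries that the gene lists do not cover; these classes were chosen after values were seen. Of 941 annotated small nucleolar RNAs, which guide modification of ribosomal RNA, 124 were testable. Their median log2 difference of PFDS from PFOS was -0.309, with 78 negative and 46 positive, 19 lower and 2 higher at an unadjusted p under 0.05 (2.36% and 2.01% over all genes), and the PFDS libraries wholly below PFOS for 28 (22.6%) and wholly above for 8 (6.45%). Over all genes those shares were 4.81% and 3.94%. The summed level of these 124 was 3240, 4023 and 2248 CPM with PFOS, 1280, 1738 and 2237 with PFDS, and 867, 1708 and 2167 in the controls. The lowest PFOS library was barely above the highest PFDS library. For PFDA against PFOA the median of the same class was -0.241. The control libraries spanned 867 to 2167 CPM, close to the span of the PFDS libraries. Small nuclear RNAs had a median of -0.096 over 175, and protein-coding genes 0.007 over 14420. The PFDS libraries were wholly below PFOS for 11.4% of small nuclear RNAs and wholly above for 4%. For the 96 microRNA genes tested these shares were 12.5% and 2.08%. The lean was not limited to small RNAs: the shares were 7.54% and 2.99% for processed pseudogenes, and 3.69% and 4.45% for protein-coding genes. Over all genes tested the median difference was -0.085 under 1 CPM, -0.040 at 1 to 10 CPM and 0.011 at 10 CPM or more. Summed small nuclear RNA was 600, 687 and 635 CPM with PFOS and 431, 447 and 452 with PFDS. In the controls it was 391, 696 and 872 CPM.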
